A study of Rattus norvegicus with 4 samples.

Results

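The interaction of diet and denervation in rat soleus was taken from all 4 arrays of the series, so the arrays used are 4 of 4. For each gene it is log2(denervated / sham) on the genistein diet minus log2(denervated / sham) on the control diet. A value above 0 means that the denervated to sham ratio was higher on genistein, a value below 0 that it was lower. The interaction was computed for 11176 of 14217 genes that the array pairs with 1 symbol, those with a signal above a floor of 78.9 units on at least 1 array.

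The rats were male Wistar, 10 weeks old at the start and 14 weeks old in the sample labels. The control diet was a modified AIN-93G in which corn oil took the place of soybean oil, and the genistein diet was AIN-93G with 0.5 g of genistein per kg (0.05%), fed for 24 days. The left sciatic nerve was cut and the right leg sham-operated at day 14 of feeding, and the soleus muscles were collected after 10 more days. RNA of 8 rats was pooled per group, giving the pools control sham, control denervated, genistein sham and genistein denervated, each on 1 array. The 2 pools of a diet are opposite legs of the same rats, whereas the diets are different rats. The interaction therefore sets 2 within-rat ratios against each other, and a difference between the 2 sets of rats cannot be told apart from diet.

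Soleus is a postural muscle made largely of slow, oxidative fibres. Loss of its nerve removes the activity that maintains the slow programme, and the muscle wastes, re-expresses embryonic and neonatal genes, and gains genes of fast fibres. Genistein is a soy isoflavone that binds oestrogen receptors, and the study's title concerns its effect on wasting after nerve loss through oestrogen receptor alpha. An interaction asks whether the response to nerve loss itself differed between the diets, which neither diet comparison nor either denervation comparison answers alone.

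With 1 array per group no value has a replicate error, no test was possible and no p-value is given. Genes were counted at a fixed size of 2-fold, meaning that the denervated to sham ratios of the diets differed by a factor of at least 2 (1 log2 unit). As a guide to scatter, the interactions of different probe sets of the same gene had an SD of 0.37 about their mean, over 3115 genes with 7334 probe sets. This SD covers the probes only, since the probe sets all measure the same 4 pools.

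Signals below are deposited units in the order control sham, control denervated, genistein sham and genistein denervated. The genes that check the operation went with the sample titles. Chrna1, the acetylcholine receptor alpha subunit that muscle makes in quantity after nerve loss, was at 1860, 20550, 1589 and 16186 units, an interaction of -0.12 that turned to 0.0099 after quantile normalization. Myog, a myogenic transcription factor, was at 3030, 10678, 2373 and 10099 units, an interaction of 0.27. The treatment field of 2 samples contradicts their titles, and nothing in the data checks which diet an array belongs to. The slow-fibre list, 14 measured genes of slow muscle, was above the floor on every array. The median signal of an array was 121 to 133 units, and 58.5% to 60.8% of probe sets lay above the floor. The interaction had a median of -0.00 and an SD of 0.40 over the measured genes. Its central 95% ran from -0.71 to 0.92.

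Most of the response to nerve loss was of similar size in both diets. For the 9357 genes whose signal exceeded the floor in every pool, the denervation log2 ratios of the diets, which share no array, correlated at r = 0.86 over genes, a description in which genes are not independent replicates. To compare the sizes without favouring a diet, genes were taken by the mean of their 2 denervation log2 ratios. The 417 genes with a mean of at least 1 had a median log2 ratio of 1.39 in control-fed and 1.35 in genistein-fed rats. Their median interaction was -0.06, with quartiles of -0.28 and 0.24, and 45.3% of them were above 0. The 586 genes with a mean at or under -1 had medians of -1.38 and -1.34 and a median interaction of -0.01, with 48.0% above 0. Over all 9357 genes the median interaction was -0.01, and 48.7% were above 0.

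**Figure D1:**
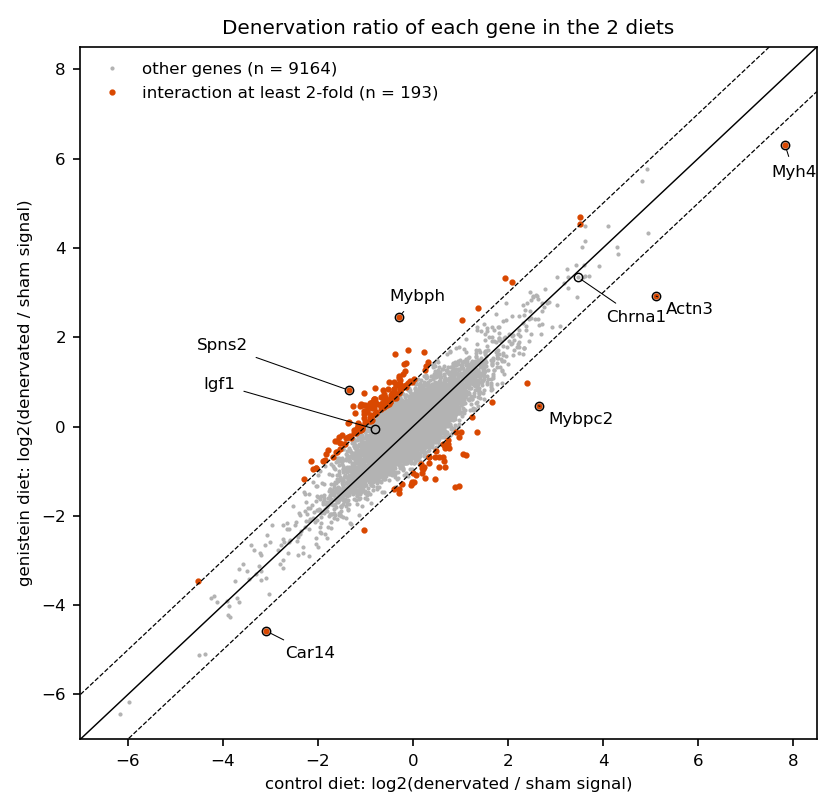
Each point is a gene above the floor on all 4 arrays, with its log2 ratio of denervated to sham signal on the control diet (x axis) and on the genistein diet (y axis). The solid line marks equal ratios and the dashed lines a 2-fold interaction, and orange genes lie on or beyond them. Most genes follow the solid line (r = 0.86), with Mybph far above it and Actn3, Mybpc2 and Myh4 below it.

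Of the 11176 measured genes, 209 (1.87%) had an interaction at least 2-fold higher on genistein and 80 (0.716%) at least 2-fold lower, 2.59% in all. The split depends on how the arrays are scaled. Of the genes past 2-fold, 72.3% were higher with the signals as deposited, 52.7% when the array medians were made equal, 61.4% after quantile normalization and 83.0% when the hybridisation controls were made equal. Equal medians moved the median of all genes by -0.10 log2 units and equal hybridisation controls by 0.12, so small shifts of a group are read below against the median of all genes. Among the 209 genes, 144 (1.54% of the 9357 fully measured genes) were above the floor on every array, 60 had arrays at the floor that could only make the interaction larger, and 5 were unresolved. The corresponding counts for the 80 lower genes were 49 (0.524%), 25 and 6. For scale, 12.2% of the measured genes differed at least 2-fold between denervated and sham muscle on the control diet and 11.2% on genistein. Between the diets, 0.322% were at least 2-fold higher and 0.277% lower on genistein in sham muscle, and 0.957% higher and 0.116% lower in denervated muscle.

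The 4 values of a gene show which arrays carry its interaction. A single array was named where the other 3 lay within 1 log2 unit of each other and it lay at least 0.8 outside them. Otherwise the sham pair or the denervated pair was named where its diet ratio gave at least 2/3 of the interaction. An interaction of 4 arrays weighs each array alike, so the array named describes the pattern and not its source. Among the 209 higher genes the denervated side stood out. The control denervated array alone was apart for 33 genes, the genistein denervated array alone for 13 and the denervated pair for 58. The genistein sham array alone was apart for 6, the control sham array alone for 5 and the sham pair for 23, and both pairs contributed for 71. The median diet log2 ratio (genistein over control) of these genes was -0.42 in the sham pair and 0.79 in the denervated pair.

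Among the 80 lower genes the sham side was named more often than the denervated side. The genistein sham array alone was apart for 9, the control sham array alone for 4 and the sham pair for 14. The control denervated and genistein denervated arrays alone were apart for 3 each and the denervated pair for 9, while both pairs contributed for 38. Their median diet log2 ratio was 0.79 in the sham pair and -0.54 in the denervated pair. The denervation ratio had the same direction in both diets in some genes: among the higher ones it was larger on the control diet for 44 and on genistein for 18, among the lower ones for 9 and 13. Most of the rest had opposite signs, with both ratios at least 1.5-fold in 17 of the higher and 13 of the lower genes.

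Dim genes passed 2-fold most often. Genes with a mean signal under 200 units, 1337 of the 9357 fully measured genes, had an interaction SD of 0.55, and 5.46% of them were at least 2-fold higher and 1.94% lower. Between 200 and 1000 units the SD was 0.39, with 1.26% higher and 0.434% lower. Above 1000 units the SD fell to 0.26, with 13 of 3408 genes higher (0.381%) and 3 lower (0.0880%). The SD between probe sets of a gene followed the same order, at 0.46, 0.36 and 0.23. The median interaction fell with signal as well, at 0.08, 0.02 and -0.04.

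**Figure D2:**
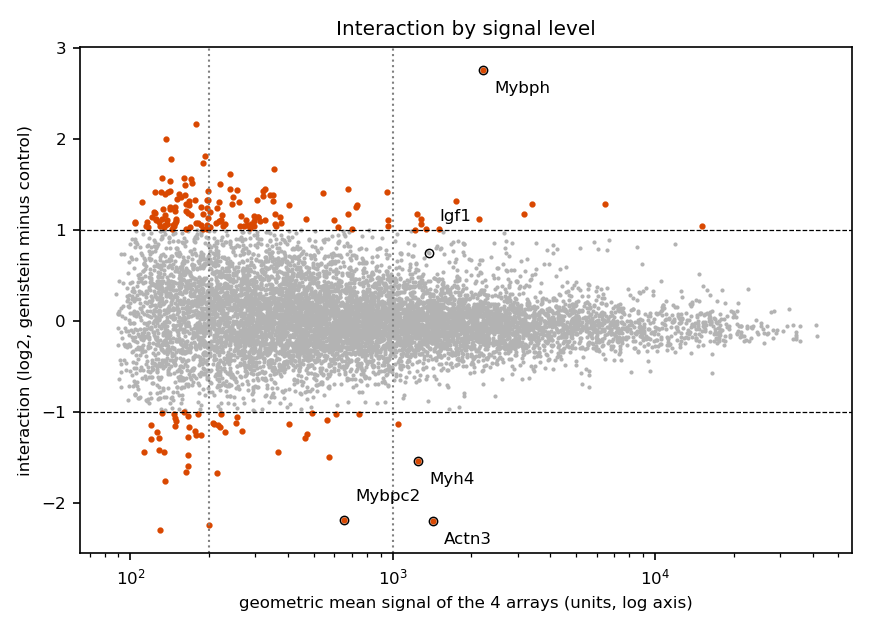
The interaction of each fully measured gene (y axis, log2) is plotted against the geometric mean of its 4 signals (x axis, units on a log scale), with orange genes past 2-fold and dotted lines at 200 and 1000 units. The cloud narrows from an SD of 0.55 at the left to 0.26 at the right, where Mybph, Actn3 and Myh4 stand apart.

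A second probe set gave limited support for the calls. For 45 of the 209 higher genes the array has 52 other probe sets above the floor on at least 1 array. Of these, 35 (67.3%) had the same sign and 6 were also past 2-fold, with a median of 0.17 where the brightest probe sets had 1.18. For 17 of the 80 lower genes there were 22 others, of which 17 (77.3%) had the same sign and 1 was past 2-fold, with medians of -0.30 and -1.24. Over all genes with several probe sets 55.6% of the others shared the sign of the brightest.

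Mybph, myosin-binding protein H of the thick filament, had the highest interaction of the 9357 fully measured genes. Its signals were 3597, 2924, 645.5 and 3540 units. The genistein sham array alone is low, 5.57-fold under control sham, while the other 3 arrays lie within 1.23-fold of each other. The denervation log2 ratio was -0.30 on the control diet and 2.46 on genistein, giving an interaction of 2.75. Nearly all of it lies in the sham pair. The array has 1 probe set for Mybph, and the interaction was 2.64 to 2.87 under the 8 alternative settings.

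Actn3, the alpha-actinin of fast-fibre Z-discs, had the third lowest interaction. Its signals were 230.1, 7988, 549 and 4156 units. Both pairs contribute, since genistein was 2.39-fold higher in sham and 1.92-fold lower in denervated muscle. The denervated muscle had 34.7-fold more than sham on the control diet and 7.57-fold more on genistein, an interaction of -2.20 that was -2.31 to -2.08 under the alternatives. The array has 1 probe set for it.

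Mybpc2, the fast isoform of myosin-binding protein C, followed at -2.18 with signals of 198.9, 1243, 734.6 and 1012 units. Here the control sham array alone is low, and the denervated arrays differ by only 1.23-fold. Its second probe set, at 16.4, 194.9, 146.9 and 167.9 units, shows the same array low, below the floor, with an interaction of -1.11 that the floor makes a bound. Myh4, the type IIb myosin heavy chain of the fastest fibres, had signals of 82.0, 18730, 143.5 and 11286 units. Its interaction of -1.54 came from both pairs, and the control sham value lies just above the floor, so a floor at the 60th percentile takes it to -0.73. For these 3 fast genes the sham muscle of genistein-fed rats read higher than that of controls and the denervated muscle lower.

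**Figure D3:**
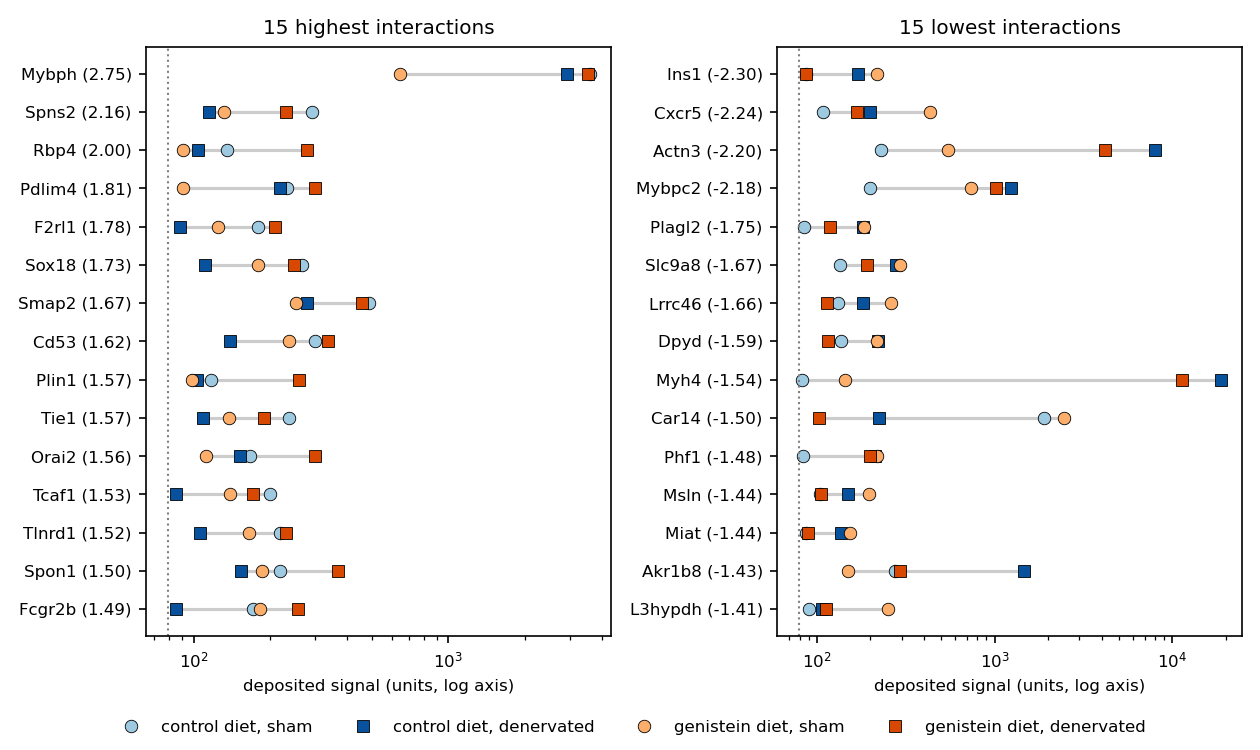
Deposited signal on each of the 4 arrays (x axis, log scale) for the genes with the 15 highest and the 15 lowest interactions among fully measured genes, with the interaction in parentheses and a dotted line at the floor of 78.9 units. Mybph has 1 array apart, genistein sham at 645.5 units, whereas Actn3 and Myh4 separate by operation first and by diet in both pairs.

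The promoters of the 3 fast genes with interactions past 2-fold, and of the growth factor gene Igf1 described next, are shown so that the start regions of fibre-type genes and of a growth factor gene can be set side by side. None is shown for Mybph. Each line gives the 250 bases before the gene's start, 5′ to 3′ on the gene's strand, from RefSeq on GRCr8. Capitals mark CANNTG, the E-box bound by myogenic factors such as Myog and Myod1, which reads the same on both strands. The windows are chr1:211604402-211604651 on the minus strand for Actn3, chr1:104154102-104154351 on the minus strand for Mybpc2, chr10:52421898-52422147 on the plus strand for Myh4 and chr7:24172282-24172531 on the plus strand for Igf1.
Actn3: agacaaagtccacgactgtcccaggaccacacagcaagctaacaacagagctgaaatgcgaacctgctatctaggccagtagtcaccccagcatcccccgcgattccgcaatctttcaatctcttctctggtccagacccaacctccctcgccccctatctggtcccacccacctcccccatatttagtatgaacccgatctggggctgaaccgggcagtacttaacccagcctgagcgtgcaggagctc
Mybpc2: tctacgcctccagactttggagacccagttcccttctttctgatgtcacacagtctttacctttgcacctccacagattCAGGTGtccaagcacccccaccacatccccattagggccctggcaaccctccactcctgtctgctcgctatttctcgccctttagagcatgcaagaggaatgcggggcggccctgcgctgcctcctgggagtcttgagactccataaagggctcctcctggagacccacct
Myh4: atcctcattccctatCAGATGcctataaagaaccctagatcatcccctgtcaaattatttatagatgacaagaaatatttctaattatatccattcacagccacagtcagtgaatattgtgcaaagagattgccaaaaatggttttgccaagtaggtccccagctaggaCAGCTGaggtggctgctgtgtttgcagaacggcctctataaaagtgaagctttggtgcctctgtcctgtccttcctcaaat
Igf1: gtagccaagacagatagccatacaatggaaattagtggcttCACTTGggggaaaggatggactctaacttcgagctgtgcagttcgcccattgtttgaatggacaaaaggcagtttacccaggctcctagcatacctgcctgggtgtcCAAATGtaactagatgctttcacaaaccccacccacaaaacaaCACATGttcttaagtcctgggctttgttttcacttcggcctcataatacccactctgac

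In these windows the motif occurs 0 times for Actn3, 1 time for Mybpc2, 2 times for Myh4 and 3 times for Igf1. At least 1 match is present in 65.5% of all 33469 promoter windows of the same length, at least 2 in 30.8% and at least 3 in 11.5%. The half-site of the oestrogen response element, GGTCA on either strand, is in 35.4% of all windows and in none of these 4. A match is a description of letters and not of binding.

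Igf1, the insulin-like growth factor that drives muscle growth, was measured by 3 probe sets with interactions of the same sign. The brightest had 1621, 928.9, 1569 and 1510 units, with the control denervated array low and the other 3 within 1.07-fold of each other. The second read 463.7, 304.7, 486.5 and 460.5 units, again with control denervated low. The third read 843.3, 713, 758.2 and 1011 units. Here control denervated is the lowest but close to genistein sham, and genistein denervated is the highest. Their interactions were 0.75, 0.53 and 0.66, each under 2-fold and each above the SD of 0.37 between probe sets. That SD holds no spread between pools, and the 3 probe sets measure the same pools. Igf1 ranked 400th from the top of 9357 genes.

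Other members of the growth factor, Akt and FoxO list had no common direction. The median interaction of its 25 measured genes was -0.08, with 12 above 0, where 49.5% of all genes were above 0, and it changed sign under 2 of the 8 alternatives. Igfbp3, a carrier of the growth factor, was the highest at 1.11 with 444.1, 220.6, 331.5 and 354.9 units, low in control denervated muscle, but its second probe set gave 0.014 and the mean of both 0.56, under 2-fold. At the other end was Igfbp5, a carrier made by muscle itself, with 2226, 11134, 3181 and 9848 units and an interaction of -0.69 that lies mainly in the sham pair. Foxo1, a transcription factor that drives atrophy genes, read 211.5, 565.2, 228.4 and 392.7 units, an interaction of -0.64 carried by the denervated pair. Ddit4, an inhibitor of mTOR signalling, was at 0.82 with 481.5, 286.3, 489.3 and 514.3 units. Foxo1 and Ddit4 were chosen for mention after their values were seen, as were the other members named below that are not the highest or lowest of a list or comparison.

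The ubiquitin ligases of muscle wasting had interactions from -0.43 to 0.34. Trim63 (MuRF1) was at 4058, 9461, 4108 and 9397 units, an interaction of -0.03 that took either sign under the scalings (-0.14 to 0.089). Fbxo32 (atrogin-1) was at 231.3, 456, 258.7 and 398.3 units, an interaction of -0.36, within the SD between probe sets. None of the 12 measured ligases passed 2-fold, where 2.59% of all measured genes did, and 3 were above 0, where 49.5% were. The median was -0.14 and ranged from -0.26 to -0.03 under the alternatives. Mul1, a mitochondrial ligase, was the lowest at -0.43 and Fbxo21 the highest at 0.34, although its second probe set gave -0.30. None of 29 proteasome subunits passed 2-fold, with a median of 0.02 and a range over genes from -0.20 (Psmb4) to 0.29 (Psma3). At a share of 2.59%, lists of 12 or 29 genes can easily hold none past 2-fold.

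Among denervation markers, 14 of 16 measured genes were above 0, where 49.5% of all genes were, with a median of 0.26 (0.14 to 0.38 under the alternatives). The median diet log2 ratio was -0.15 in sham and 0.01 in denervated muscle, so the shift lay mainly on the sham side. Gap43 was lower after nerve loss on control (log2 ratio -1.15) and on genistein (-0.65), so its 0.49 is a smaller loss. Chrng, Chrne and Musk were unresolved, with both sham arrays below the floor. Ankrd1, a stress-responsive ankyrin protein of the sarcomere, was the only member past 2-fold, with 2187, 5635, 1320 and 8282 units. It was lowest in genistein sham and highest in genistein denervated muscle, an interaction of 1.28, and its other probe set gave 1.45. Hdac4, a deacetylase that relays loss of activity, was the lowest at -0.55 with 197.9, 2157, 202.4 and 1507 units. Runx1, a transcription factor of denervated muscle, read 2308, 12764, 1547 and 9342 units, lower on genistein in both pairs, an interaction of 0.13. Its other probe set, at 333.2, 5916, 177.2 and 6053 units, differed in the sham pair alone and gave 0.94, so the value for Runx1 depends on the probe set.

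Fast-fibre genes went in both directions. Of 17 measured members 3 were past 2-fold lower (Actn3, Mybpc2 and Myh4), 1 was past 2-fold higher (Mybph) and 7 were above 0, with a median of -0.14. Over all measured genes 0.716% were past 2-fold lower, 1.87% past 2-fold higher and 49.5% above 0. Pvalb, the calcium buffer of fast fibres, was at 0.84 with 316.1, 9658, 217.9 and 11911 units, the reverse order of diets to Myh4 in both pairs. Other abundant fast genes were mixed. Myh2, the type IIa myosin, was at 0.35 and Myh1, the type IIx myosin, at 0.04. Atp2a1, a calcium pump gene, was at -0.57 and Mylk2, a myosin kinase gene, at -0.71, with -1.10 from its second probe set. The sign for Myh1 changed with the scaling, from -0.069 to 0.16.

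Slow-fibre genes had a median of -0.13 over 14 members, with 4 above 0 and 2 past 2-fold, both higher. Over all measured genes 49.5% were above 0 and 1.87% past 2-fold higher. Pln, phospholamban, the brake of the slow calcium pump, read 503.8, 245.8, 290.9 and 369.3 units, an interaction of 1.38 from both pairs, and its second probe set above the floor gave 1.05. Csrp3, a LIM protein of the Z-disc, read 28593, 9327, 17102 and 11444 units. Its interaction of 1.04 lies mainly in the sham pair, where genistein read lower than control. The lowest was Tpm3, slow tropomyosin, at -0.72 with 29301, 1415, 28500 and 835.5 units, where the denervated pair differs, but 10 of its other 11 probe sets were above 0, and the mean of its probe sets gave 0.32. Myl2, the slow regulatory light chain, was likewise lower in genistein denervated muscle, at 38169, 9204, 36305 and 5870 units (-0.58), but a second, dimmer probe set gave -0.016 and the mean of both -0.30.

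The list of developmental genes stood at a median of 0.59, and 7 of its 8 measured members were above 0. Over all measured genes 49.5% were above 0. Myh3, the embryonic myosin, was at 8595, 5009, 5321 and 7534 units, so that the denervated to sham ratio was below 1 on the control diet and above 1 on genistein, an interaction of 1.28. Mymk, the membrane protein of myoblast fusion, was at 1.01 with 178, 138.7, 197 and 308.2 units, highest in genistein denervated muscle. Myh8, the neonatal myosin, went the other way at -0.36. Vim and Nes, intermediate filament genes that fibroblasts and vessels also express, were at 0.79 and 0.77 and are not specific to regenerating fibres.

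The groups with the highest medians mark cells outside the fibre. All 25 measured extracellular matrix and fibroblast genes were above 0, with a median of 0.71 and 3 past 2-fold, although Col15a1 and Bgn were at -0.087 and -0.085 with equal medians. For comparison with this list and the cell lists below, 49.5% of all measured genes were above 0 and 1.87% were past 2-fold higher. The list's median diet log2 ratio was 0.00 in sham and 0.68 in denervated muscle, so the difference lies in the denervated pair. Against sham, the denervated muscle had a median log2 ratio of -1.32 in control-fed and -0.54 in genistein-fed rats, which makes the control denervated array the lowest. In bulk RNA, fewer cells of a type and less RNA per cell cannot be told apart.

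Lox, the enzyme that cross-links collagen, read 887.2, 342.3, 809.4 and 849 units, and control denervated alone is low (1.44). Its second probe set read 660.1, 289.2, 816.2 and 476.1 units (0.41), and the mean of both gave 0.93, under 2-fold. Col1a2, a chain of type I collagen, read 10013, 3027, 10823 and 6039 units (0.88), but a second, equally bright probe set read 10018, 3105, 11872 and 3821 units (0.054), low in both denervated arrays. Fbn1, the microfibril protein fibrillin, read 3741, 1354, 3749 and 2656 units (0.97), and its second probe set gave 0.82. Tnc, the matrix protein tenascin C, was past 2-fold at 1.11 and Timp1, an inhibitor of matrix proteases, at 1.03. By their brightest probe sets the sham arrays are alike in each of these genes, within 1.20-fold, and the control denervated array is the lowest. The lowest members were Col15a1, a collagen of vessel and muscle basement membranes, at 0.025 and Bgn, the proteoglycan biglycan, at 0.027, though a second Col15a1 probe set gave 0.69.

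Endothelial markers had a median of 0.64 over 13 genes, with 10 above 0 and 3 past 2-fold. Tie1, an endothelial receptor kinase, was the highest at 1.57 with 235.9, 109.1, 137 and 188.5 units, with both pairs contributing. Plvap, a protein of capillary diaphragms, was at 1.31 and Eng, a co-receptor of vessels, at 1.05. Kdr, the main receptor for vascular growth factor, read 1010, 281.7, 985.2 and 530.1 units, with control denervated alone apart (0.95). Pecam1, a defining marker of the same cells, was at -0.12 with 401.8, 303.4, 457.3 and 316.7 units, so the group's shift is not shared by all of its defining genes. The lowest, Nos3, of nitric oxide synthesis, was at -0.27 but unresolved at the floor.

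Macrophage and leukocyte markers had a median of 0.71, with 21 of 23 above 0 and 3 past 2-fold. C1qb, a complement subunit made by macrophages, read 498, 220.5, 420.5 and 411.1 units, with control denervated alone apart (1.14). Lgals3, the lectin galectin-3, read 3894, 795.1, 3892 and 1721 units (1.11), and the sham arrays are equal. Spp1, osteopontin, had 308.1, 73.6, 275.9 and 156.2 units, and because control denervated is below the floor its 1.14 is a lower bound. Ptprc, the leukocyte antigen CD45, was highest in genistein denervated muscle, with 216.4, 180.2, 286.7 and 444 units (0.90), while a second probe set was highest in genistein sham muscle and gave -0.18. Itgam, an integrin of macrophages, was the lowest at -0.20 but unresolved at the floor.

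Among adipocyte markers, the genistein denervated array stood apart in Plin1, Cfd, Fasn and Adipoq. Plin1, which coats fat droplets, read 116.8, 102.9, 98.8 and 259.1 units (1.57). Its second probe set was below the floor on every array, and the interaction was as low as 0.25 under the alternatives. Cfd, the fat-cell protease adipsin, read 888, 787.4, 704.1 and 1663 units (1.41), and Fasn, fatty acid synthase, 288.6, 348.2, 280.8 and 713.3 units (1.07), though its second probe set, below the floor in both sham pools, gave 0.17 and the mean of both 0.62, under 2-fold. Adipoq, the hormone adiponectin, was at 0.90 with 240.2, 248.3, 241 and 466.4 units. Scd, a desaturase of fat synthesis, was higher in denervated muscle on both diets, with 130.1, 501.3, 152 and 1529 units (1.38). The list median was 0.68 over 16 genes, with 6 past 2-fold, but it was 0.29 over the 13 genes with a signal above the floor on each array. Lpl and Car3, which muscle fibres also express, were at -0.00 and -0.05 and took either sign under the scalings. The lowest member was Plin4, another droplet coat protein, at -0.69. Over the 17 adipocyte genes on the array the summed signal was 84241, 51795, 74132 and 47674 units, most of it from Lpl and Car3.

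**Figure D4:**
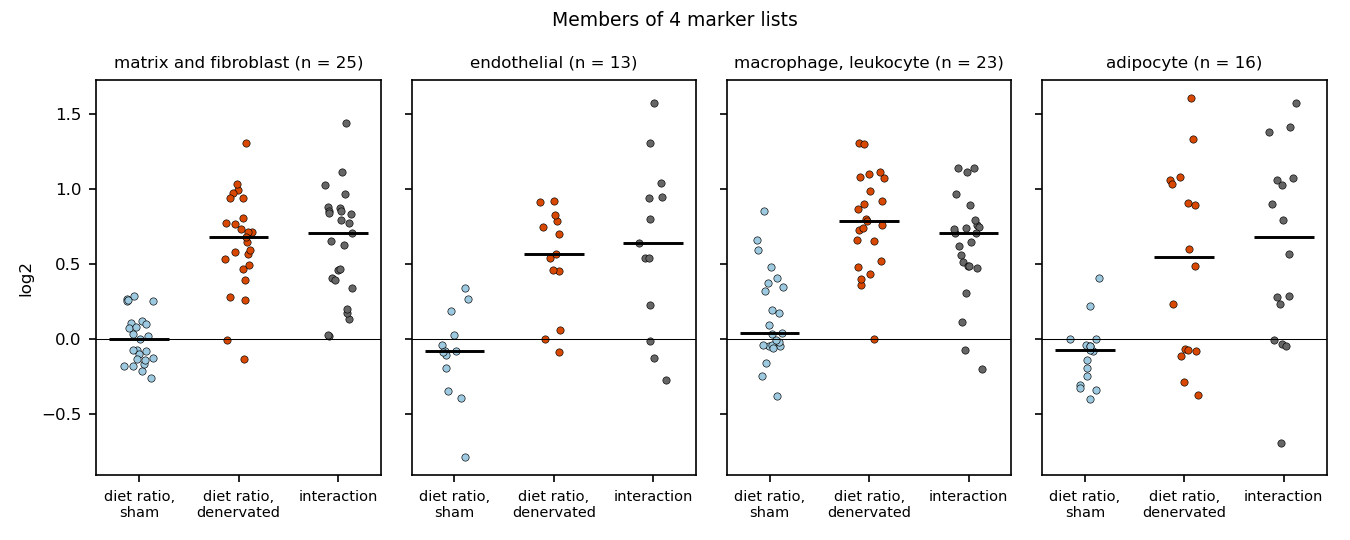
Each point is a measured gene of 4 marker lists, with its diet log2 ratio (genistein over control) in the sham pair and in the denervated pair and its interaction, and bars mark medians. In all 4 lists the sham medians lie between -0.08 and 0.04 and the denervated medians between 0.55 and 0.79.

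Of the list members past 2-fold named so far, Mybph, Actn3, Mybpc2, Ankrd1, Myh3, C1qb, Lgals3, Cfd and Scd stayed past it under every alternative. With the floor at the 60th percentile Tie1 was at 0.12, Tnc at 0.19 and Spp1 at 0.16.

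Marker levels and RNA quality differed between the arrays as well. Summed over its list, the signal was 92825, 41461, 93045 and 66144 units for matrix and fibroblast genes, 6914, 3622, 6745 and 5427 for endothelial genes and 20176, 12518, 20833 and 20425 for macrophage and leukocyte genes. The control denervated array was the lowest each time. Below the floor there were 0 of 25 matrix genes on any array, 0 or 1 of 13 endothelial genes, 0 to 3 of 23 macrophage genes and 1 to 4 of 17 adipocyte genes. The same array had the highest 3′ to 5′ ratio of beta-actin, 3.79 against 2.08 in control sham, 2.32 in genistein sham and 2.76 in genistein denervated muscle. The 5′ and middle beta-actin probe sets had interactions of 0.75 and 0.71, as large as the medians above, and the 3′ probe set 0.14. The ratio for Gapdh was 1.13 to 1.24 on the 4 arrays, with interactions of its probe sets from -0.12 to -0.05. The part of RNA quality in the interactions was not tested.

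Schwann cell and nerve genes had a median of 0.57 with 7 of 8 measured genes above 0 and none past 2-fold. S100b, a Schwann cell calcium-binding protein, read 298.2, 252.8, 273.9 and 407.6 units (0.81). The list ran from Cdh2, a cadherin, at -0.03, unresolved at the floor, to Prx, a myelin protein, at 0.92 as a bound. Of 13 such genes on the array, 5 to 7 were below the floor on each array. Satellite cell markers had a median of 0.07 over 8 genes, which changed sign under 2 alternatives. Satellite cell genes ran from Cdh15, a cadherin, at -0.40 to Itga7, a laminin receptor, at 0.58, for which a second probe set gave -0.15. Of 4 measured erythrocyte genes 2 were above 0, and no median is given for so few. Hbb, a globin, read 15169, 10137, 7469 and 6429 units, lower on genistein in both pairs and an interaction of 0.37. Slc4a1, the red-cell anion exchanger, was at -0.72 as a bound, and Ahsp, a globin chaperone, was past 2-fold at 1.03 but unresolved, since only control sham lay above the floor. The part of blood content in the interactions was not tested.

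Energy metabolism lay on the other side of 0 by small amounts. For comparison, 49.5% of all measured genes were above 0, and fully measured genes with a mean signal above 1000 units had a median of -0.04. The summed signal of the 40 oxidative phosphorylation genes was 791904 units in control sham muscle. For oxidative phosphorylation genes the median was -0.07 and 7 of 40 were above 0, and for citric acid cycle genes it was -0.09 and 4 of 16 were above 0. Both turned positive, to 0.043 and 0.031, when hybridisation controls were made equal, a setting in which the median of all genes was 0.11. Relative to the median of all genes they ranged from -0.08 to -0.05 and from -0.09 to -0.07 under the alternatives. Fatty acid uptake and oxidation genes, at a median of -0.19 and 6 of 27 above 0, stayed below 0 under every alternative, as did glycolysis and glycogen genes at -0.15. No gene of these 4 lists passed 2-fold, where 2.59% of all measured genes did. Cox7a1, the muscle isoform of a cytochrome oxidase subunit, was the lowest at -0.89 with 882.2, 797.5, 785.1 and 382.8 units, and genistein denervated alone is low. Acads, a short-chain fatty acid dehydrogenase, was at -0.63 and Slc16a3, a lactate exporter, at -0.63. The highest members were Ndufv2, of respiratory complex I, at 0.18, Idh3a, of the citric acid cycle, at 0.16, Ucp2, a mitochondrial carrier, at 0.43 and Slc2a1, a glucose transporter, at 0.70. Pdk2, a kinase that curbs entry into the cycle, was the lowest of its list at -0.53.

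The oestrogen list had a median of -0.23 (-0.34 to -0.11 under the alternatives). Of its 13 measured genes 3 were above 0, where 49.5% of all genes were, and none was past 2-fold, where 2.59% were. Ncoa3, a coactivator of oestrogen receptors, was the lowest at -0.81, with the difference in the sham pair, at 156.8, 208.2, 276 and 208.5 units. A second Ncoa3 probe set had the opposite sign (0.19), and the mean of both gave -0.31. Ccnd1, the G1 cyclin, was the highest at 0.66 with 623.3, 235.7, 577.1 and 343.9 units. The other 2 Ccnd1 probe sets, dimmer but above the floor on every array, gave 1.44 and 1.30, and the mean of all 3 was past 2-fold at 1.13. Of the 19 members on the array, 6 or 7 were below the floor on each array. Esr1 and Esr2, the oestrogen receptor genes, are not among the 13 measured members, so the median does not read the receptor of the study's question.

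**Figure D5:**
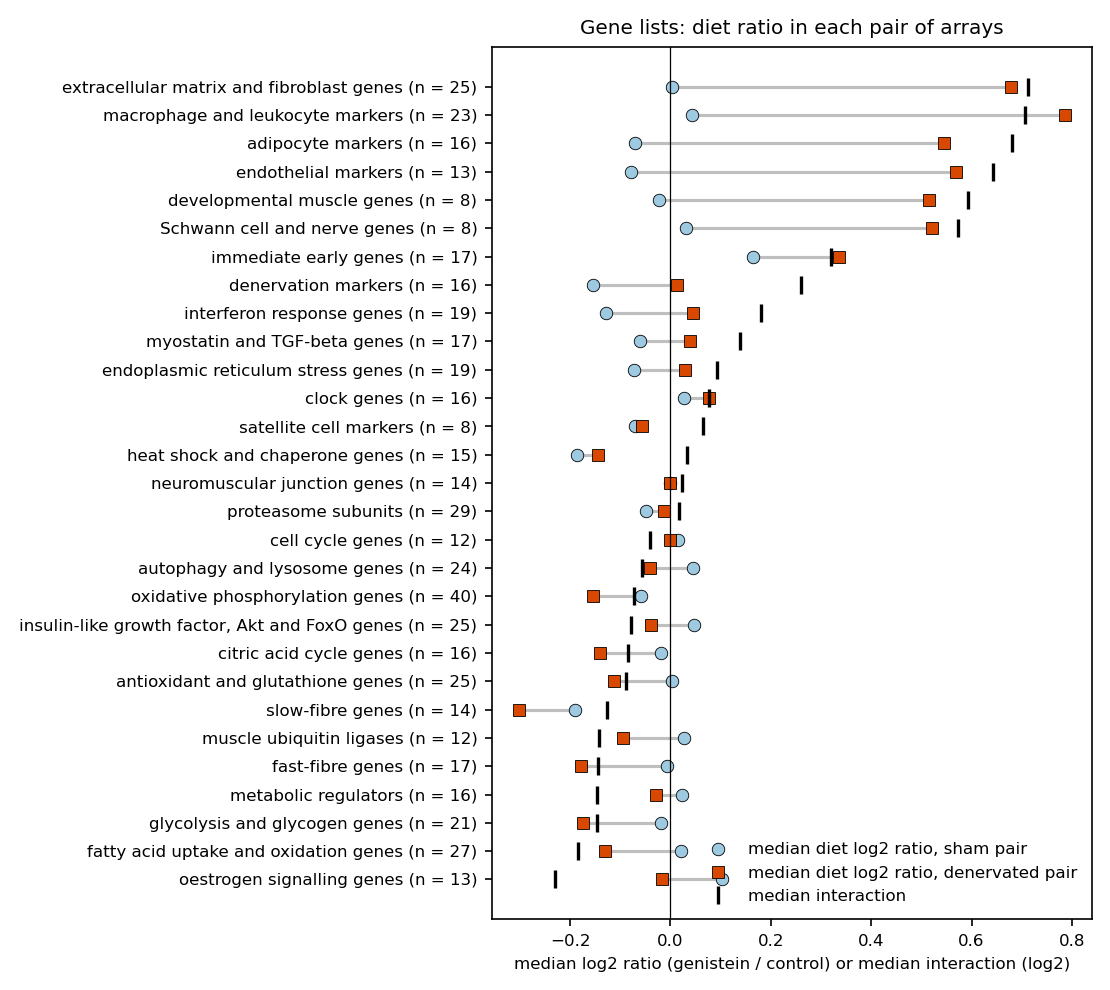
For each gene list with at least 5 measured genes (n in parentheses), circles and squares mark the median diet log2 ratio (genistein over control) in the sham and denervated pairs, and the black tick marks the median interaction. The lists of cells outside the fibre lie at 0.57 to 0.71, apart from satellite cell markers at 0.07, and the metabolic lists between -0.19 and -0.07.

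Several other lists had medians within 0.15 log2 units of that of all genes. For comparison, 49.5% of all measured genes were above 0 and 2.59% were past 2-fold. For myostatin and TGF-beta genes the median was 0.14, 12 of 17 members were above 0 and Fstl3 was past 2-fold as a bound. Acvr2b, a receptor of myostatin, was the lowest at -0.31. Metabolic regulators were at -0.15 with 6 of 16 above 0, and Nr4a3, an orphan receptor, was past 2-fold but unresolved, since only genistein sham lay above the floor. Other Nr4a3 probe sets, also partly below the floor, gave -0.84 and -0.67, again with genistein sham the highest. Ppargc1b, a coactivator of mitochondrial genes, was the highest at 0.42. Endoplasmic reticulum stress genes were at 0.093 with 13 of 19 above 0. Their median turned to -0.019 under 1 alternative but stayed at 0.076 to 0.14 relative to the median of all genes. They ran from Calr, a chaperone, at -0.92 to Eif2ak3, a stress sensor kinase, at 1.01, which was as low as 0.099 under the alternatives. Medians of antioxidant (-0.089), heat shock (0.033), cell cycle (-0.042), autophagy and lysosome (-0.057) and neuromuscular junction genes (0.022) changed sign under 1 or 2 alternatives each. Relative to the median of all genes, the antioxidant (-0.11 to -0.037) and heat shock medians (0.026 to 0.086) kept their sign and the others did not. No member of these lists passed 2-fold, where 2.59% of all measured genes did, and lists of this size can easily hold none. The extremes were Mt1, a metallothionein, at -0.64 (unresolved at the floor) and Gclc, of glutathione synthesis, at 0.64 among antioxidant genes. Among chaperones they were Hsph1 at -0.50 and Hspb7 at 0.32. In the cell cycle list they were Mki67, a marker of dividing cells, at -0.37 and Mcm6, of the replication helicase, at 0.48 as a bound. For autophagy and lysosome genes they were Map1lc3a, of autophagosomes, at -0.41 and Ctsk, a protease, at 0.90. For the neuromuscular junction they were Etv5, a transcription factor, at -0.49, which changed sign under 2 alternatives, and Utrn, utrophin, at 0.40. Second probe sets gave 0.11 for Gclc, -0.068 for Hsph1 and 0.62 for Etv5.

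The 15 highest interactions include Mybph, Plin1 and Tie1, given above, and 12 more genes. Spns2, which exports the lipid signal sphingosine-1-phosphate, read 292.2, 114.6, 131 and 230.2 units (2.16), from both pairs, but its other probe set gave -0.24. Sox18, a transcription factor of endothelium, read 265.6, 110.7, 179.2 and 247.7 units (1.73). Cd53, a leukocyte tetraspanin, read 299.4, 139.4, 236.3 and 337.6 units (1.62), and Fcgr2b, an inhibitory antibody receptor, 170.4, 85.1, 182.3 and 256.2 units (1.49). In these last 3 genes control denervated muscle is the lowest array.

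F2rl1, a receptor cut by proteases, read 179.6, 88.3, 124 and 209.4 units (1.78), Tlnrd1 218.8, 106.1, 165.3 and 229.4 units (1.52) and Tcaf1 199.5, 85, 138.3 and 170.3 units (1.53). They too were lowest in control denervated muscle. Rbp4, the plasma carrier of retinol, read 134.8, 103.9, 90.4 and 278.9 units (2.00). Orai2, a calcium channel subunit, read 167, 151.7, 111.6 and 299.5 units (1.56), and Spon1, the matrix protein spondin, 217.6, 153.4, 185.6 and 370.2 units (2.83-fold). For Rbp4, Orai2 and Spon1 the genistein denervated array is the highest. Pdlim4, a LIM protein of actin fibres, read 232.8, 217.9, 91 and 298.7 units (1.81), with genistein sham alone low as for Mybph. Smap2, of vesicle traffic, read 486, 278.9, 251.5 and 458.4 units (1.67), while a second probe set above the floor on every array gave 0.15.

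Several of the 15 lowest were close to the floor. Ins1, an insulin gene with no known role in muscle fibres, read 86.9, 170.9, 218 and 87.1 units (-2.30), and Cxcr5, a chemokine receptor of B cells, 108.2, 199.7, 430.9 and 168.7 units (-2.24). Cxcr5 is high in genistein sham alone, and its other probe set was below the floor on all 4 arrays. Plagl2 read 84.2, 182.8, 184.9 and 119 units (-1.75), Slc9a8, a sodium-proton exchanger, 134.3, 277.9, 293 and 191 units (-1.67) and Lrrc46 131.4, 182.1, 260.1 and 114.3 units (-1.66). In all 5 the genistein sham array is the highest.

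Dpyd, which breaks down pyrimidines, read 137.3, 220.1, 218.4 and 116.2 units (-1.59). Msln, mesothelin, read 103.6, 150.4, 196.8 and 105 units (-1.44), the noncoding RNA gene Miat 86.6, 136.6, 153 and 88.9 units (-1.44) and L3hypdh, an enzyme of hydroxyproline breakdown, 89.9, 107.2, 250.8 and 112.4 units (-1.41), for which a second probe set gave -0.33. Phf1, a chromatin protein, read 83.2, 212.1, 216.6 and 198.4 units (-1.48), with control sham alone low. Beside the fast-fibre genes given above, 2 of the 15 lowest exceeded 1000 units on at least 1 array. Car14, a membrane carbonic anhydrase, read 1897, 223.5, 2466 and 102.9 units (2.82-fold lower on genistein), with the denervated pair apart, and its second probe set gave -0.83. Akr1b8, an aldo-keto reductase, read 275.6, 1464, 149.7 and 294.3 units (-1.43), and control denervated alone is high.

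Of these 30 genes, the interaction stayed past 2-fold in every alternative that gave a value for 2 of the 15 highest, Mybph and F2rl1, and for 7 of the 15 lowest, Actn3, Mybpc2, Plagl2, Phf1, Msln, Miat and Akr1b8. A floor at the 60th percentile ended it for 11 of the highest and 8 of the lowest, because 1 or more of the 4 signals then sits at the floor. The same floor gave no value for F2rl1, Tcaf1, Plagl2, Phf1, Msln and Miat, which lay wholly below it.

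Because dim genes scatter most, the 16 genes past 2-fold with a mean signal above 1000 units are named, a choice made after the values were seen. Beside Mybph, Actn3, Myh4, Csrp3, Lgals3, Myh3 and Ankrd1, they include matrix and tendon genes with control denervated alone low. Tnmd, the tendon protein tenomodulin, read 1693, 581.6, 1768 and 1374 units (1.18), Mfap5, a microfibril protein, 4429, 1859, 3614 and 3425 units (1.18) and Aspn, the proteoglycan asporin, 2130, 659.6, 2398 and 1500 units (1.01). The other probe set of Aspn gave 1.12. Ecm2, a matrix protein, was at 1.01 and S1pr1, a sphingosine-1-phosphate receptor of endothelium, only just reached 2-fold.

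S100a11, a calcium-binding protein, was at 1.12 and Gda, guanine deaminase, at 1.32, though another Gda probe set gave 0.33. Nmrk2, a muscle kinase of NAD synthesis, read 5946, 257.5, 4458 and 402.2 units, with a smaller difference between sham and denervated muscle on genistein (1.06). Vrk3, a kinase, was at -1.13 with 1096, 1249, 1299 and 677.5 units, low in genistein denervated muscle. Of the 16 genes, the control denervated array alone was apart for 6, the denervated pair for 3, the sham pair for 1 and genistein sham alone for 1, and both pairs contributed for 5.

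For genes with an array at the floor the interaction is a bound. Fstl3, a secreted antagonist of activin and myostatin, read 205, 12.4, 107.1 and 163.3 units, at least 3.96-fold in ratio terms (1.99), with control denervated below the floor. Its second probe set was below the floor on every array. The mast cell protease gene Mcpt1l1 read 183.5, 78.6, 99.8 and 153.8 units (at least 3.58-fold), S100a3 105.6, 318.7, 78.9 and 794.7 units (at least 3.34-fold), the protease inhibitor A2m 161.7, 70.2, 41.7 and 126.4 units (at least 3.28-fold) and Ociad2 149.8, 48.6, 61 and 132.4 units (at least 3.19-fold). All 5 have a denervated to sham ratio that is higher on genistein.

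In the other direction were Sobp at 59.9, 233.9, 178.4 and 161.5 units (at least 3.27-fold lower), the synaptic vesicle gene Syp at 75.9, 140.9, 157.1 and 86.2 units (at least 3.25-fold) and Adat3, of a tRNA-editing enzyme, at 64.7, 127.2, 149 and 74.7 units (at least 3.04-fold). Rsl24d1, a ribosome assembly factor, had 193.1, 232.4, 192.8 and 34.9 units (at least 2.94-fold lower), and only genistein denervated is low. Pspn, the growth factor persephin, had 27.1, 111.4, 159.1 and 13.3 units (at least 2.85-fold lower). The signals above the floor in these 5 genes are all within 3-fold of it.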

How the data were processed

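Values are signal intensities on a linear scale as deposited, 1 for each probe set on an array. GCOS 1.1 is the software named, per the submitters' processing notes; the sources used here do not give its scaling target, detection calls or the genome build of the probes. Without the lowest and highest 2% of probe sets, each array averaged 500.2 units, and no scaling was added. Of 31099 probe sets, 57 controls were set aside, and 20826 had 1 gene symbol, 436 several and 9780 no listed symbol. Of those with 1 symbol, 20758 gene identifiers matched the RefSeq annotation of GRCr8, with 0 symbols updated. Signals under the 40th percentile of all arrays together (78.9 units) were raised to it before log2. Where a gene had several probe sets, the brightest by mean log2 signal stood for it. Alternatives were median, quantile and hybridisation control scaling, floors at the 20th and 60th percentiles, log2(signal + 32) with no floor, the mean of probe sets, and genes above the floor on all arrays.

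The groups came from the sample titles. Named were Mybph, Actn3 and Igf1, the 15 highest and 15 lowest interactions among genes above the floor on all arrays, the 5 largest bounds in each direction, and the highest and lowest member of each of 30 gene lists (599 genes, 539 on the array). Other names were chosen after their values were seen. The members and lists were chosen with earlier results of these data known. A list median was given for at least 5 measured genes. The code was tested on simulated data. Python 3.11.15, numpy 2.4.6 and pandas 2.3.3 were used. The number of arrays limits the precision.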

Additional observations from a re-analysis of the deposited data

Results flagged for a closer look

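Among the named genes above the floor on every array, 9 had a denervated to sham ratio of at least 1.5-fold in opposite directions in the 2 diets. The difference was not tested, since each group is 1 array. Lower on genistein were Ins1, an insulin gene (log2 ratio 0.98 for control, -1.32 for genistein, interaction -2.30), Cxcr5, a chemokine receptor (0.88 and -1.35, -2.24), Plagl2 (1.12 and -0.64, -1.75), the sodium-proton exchanger gene Slc9a8 (1.05 and -0.62, -1.67), the pyrimidine-degrading enzyme gene Dpyd (0.68 and -0.91, -1.59) and the noncoding RNA gene Miat (0.66 and -0.78, -1.44). Higher on genistein were Smap2, of vesicle traffic (-0.80 and 0.87, 1.67), the protease receptor gene F2rl1 (-1.02 and 0.76, 1.78) and the lipid transporter gene Spns2 (-1.35 and 0.81, 2.16). Other probe sets above the floor did not repeat the values for Smap2 (0.15 and -0.12) or Spns2 (-0.24). With the floor at the 60th percentile the interaction was -0.0033 for Ins1, -0.023 for Dpyd, -0.99 for Cxcr5, -0.78 for Slc9a8 and 0.51 for Spns2, and no value was left for Plagl2, Miat and F2rl1.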

How the results depend on the processing

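No paired analysis was possible because each group is 1 array, and no replicate could be left out. The counts of genes past 2-fold depend on scaling and on the treatment of dim signals. With 209 higher and 80 lower as reported, there were 137 and 123 under equal medians, 767 and 516 with the floor at the 20th percentile, 42 and 12 at the 60th, 283 and 185 with log2(signal + 32) and no floor, and 144 and 49 over genes above the floor on all arrays. Of the 137 higher genes under equal medians all 137 were among the 209, and of the 123 lower genes 80 were. The other settings kept both counts within 1.5 times. Of 229 list medians under alternatives, 2 moved by more than the SD of 0.37 between probe sets, both of adipocyte markers (0.25 with the floor at the 60th percentile and 0.29 over genes above the floor on all arrays). Lists with at least 3/4 of members on 1 side of 0 kept their sign except oxidative phosphorylation (0.043) and citric acid cycle genes (0.031) under hybridisation control scaling. Relative to the median of all genes, which was 0.11 in that setting, both of these lists stayed below 0. The 18 hybridisation control probe sets themselves had interactions from -0.90 to 1.46. No named gene past 2-fold changed sign, and 405 of 473 values of these 63 genes stayed past 2-fold. Signals near the floor limit what can be said of dim genes.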

Other observations

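Mast cell genes, a group looked at after the values were seen, did not move together. Cpa3, the mast cell carboxypeptidase, read 308.7, 121.9, 286.4 and 308.8 units in control sham, control denervated, genistein sham and genistein denervated muscle, an interaction of 1.45. Cma1, the protease chymase, read 193.5, 45.2, 215.3 and 179.5 units, an interaction of at least 1.03, and in both genes control denervated alone is low. The mast cell protease gene Mcpt1l1, given above, was higher as well, at least 1.84. Tpsb2, a tryptase of the same cells, read 261.4, 144.3, 289.3 and 24.9 units, an interaction of -1.02 or lower, with genistein denervated below the floor. Gata2, a transcription factor of mast cells and endothelium, was at -0.23.

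Immediate early genes, which respond to activity and to handling of tissue, had a median interaction of 0.32. Of 17 measured members 11 were above 0 and none past 2-fold, where 49.5% and 2.59% of all genes were. Dusp1, a phosphatase of stress kinases, was the highest at 0.82 with 2671, 544.7, 2992 and 1080 units, and Zfp36, of mRNA decay, the lowest at -0.43, with a change of sign under 1 alternative. Of 19 interferon response genes none passed 2-fold, with a median of 0.18, and Gbp2, a guanylate-binding protein, was the highest at 0.72, while Mx2, an antiviral protein, was the lowest at -0.38 and changed sign under 1 alternative. Among clock genes Nfil3 was past 2-fold at 1.17 with 235.7, 88.4, 219.8 and 185.2 units (0.10 with the floor at the 60th percentile), and control denervated alone is low, whereas Per1 was at -0.69, with control sham below the floor, and turned to 0.77 with the floor at the 60th percentile.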
